A study of Mus musculus with 4 samples.

Results

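The genes described here are 10 transcription factors of limb mesenchyme, read for open chromatin in rib cartilage cells. They were Prrx1, Prrx2, Shox2, Tbx4, Tbx5, Pitx1, Hand2, Twist1, Msx1 and Msx2, a list set by name, and they are 10 of 18098 protein-coding genes found in both annotations used. Every peak with its summit within 1 kb of the 5′ end of a gene was taken as a promoter peak, and every peak in the gene body or within 100 kb on each side was taken as a peak of that gene's window. The genes lie at chr1:165175247-165243841 for Prrx1, chr2:30690492-30736761 for Prrx2, chr3:66775649-66785693 for Shox2, chr11:85699924-85729599 for Tbx4, chr5:120284672-120335227 for Tbx5, chr13:55926415-55937553 for Pitx1, chr8:59799780-59803314 for Hand2, chr12:34642536-34644682 for Twist1, chr5:38211724-38215822 for Msx1 and chr13:53562250-53568443 for Msx2 (mm9, whole gene). A window can hold other genes, so a peak in it is assigned by position alone. Open chromatin was measured by ATAC-Seq, in which the Tn5 transposase inserts sequencing adapters where DNA is accessible, in primary chondrocytes that were released by collagenase from the rib cartilage of newborn mice.

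There were 4 libraries. Cho had 2 replicates of primary chondrocytes whose genotype the labels do not give and for which no label says whether they came from separate animals. WT was 1 library of wild-type chondrocytes, and Del was 1 library labelled E160(delta/delta);E308(delta/delta), from mice homozygous for CRISPR/Cas9 deletions of E160 and E308, enhancer regions upstream of Sox9, made in C57BL/6J embryos. The deletions are constitutive, so all cells of those mice carry them, and a cultured cell population rather than a sorted cell type was assayed. Within 1.5 kb of the E308 position the strongest fold enrichment was 23.2 and 30.0 in the Cho replicates, 15.4 in WT and 3.07 in Del, and at the E160 position it was 11.4, 15.2 and 13.4 with no peak in Del. Those values run in the direction of the Del label.

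In the embryo these factors set up and shape the limb bud. Tbx5 marks the forelimb field, and Tbx4 and Pitx1 the hindlimb field, where Pitx1 acts upstream of Tbx4. Hand2 patterns the bud from front to back upstream of Shh. Prrx1, Prrx2 and Twist1 act broadly in limb and craniofacial mesenchyme, Shox2 is required for the proximal limb skeleton, and Msx1 and Msx2 are targets of BMP signalling. The ribs arise from somites and not from the lateral plate that builds the limb skeleton.

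The lists held 76242, 148330, 90971 and 169591 peaks in Cho replicate 1, Cho replicate 2, WT and Del. Background depth was 6840, 20816, 4622 and 8697 tags per Mb in the same order, so Cho replicate 2 was the deepest and WT the shallowest. Cho replicate 1 was scored against a single constant background and the others against local ones, and Cho replicate 2 used mm10 positions while the other lists used mm9. Fold enrichment is the number of tags (reads as MACS2 piles them up) over a summit plus 1, divided by the background plus 1. It is therefore comparable within a list and only roughly between lists. Of 11 chondrocyte markers, 5 had a promoter peak in Cho replicate 1 and 10 in each other library, with Comp without a peak in any library. Of 6 fibroblast markers, 3, 5, 5 and 6 had a promoter peak. Of 5 skeletal muscle markers 0, 1, 1 and 2 did, of 4 endothelial markers 2, 1, 2 and 2, of 4 keratinocyte markers 0, 1, 1 and 1, of 3 osteoblast markers found 0, 3, 1 and 2, and of 3 blood markers found 0 in every library. The share over all genes was 58.6%, 64.7%, 62% and 67.8% in Cho replicate 1, Cho replicate 2, WT and Del. The part of other cell types in the results below was not tested.

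The RefSeq table (GRCm38.p6) held the promoter, 250 bases before to 50 after the start, for 8 of the 10 genes. The promoters of 3 of them are shown. Msx1 had the highest promoter fold enrichment of the 10 genes in Cho replicate 2 and WT, Twist1 had the highest in Cho replicate 1, and Prrx1 had a weaker promoter in a window dense with peaks. Capitals mark each CpG.
Msx1 promoter: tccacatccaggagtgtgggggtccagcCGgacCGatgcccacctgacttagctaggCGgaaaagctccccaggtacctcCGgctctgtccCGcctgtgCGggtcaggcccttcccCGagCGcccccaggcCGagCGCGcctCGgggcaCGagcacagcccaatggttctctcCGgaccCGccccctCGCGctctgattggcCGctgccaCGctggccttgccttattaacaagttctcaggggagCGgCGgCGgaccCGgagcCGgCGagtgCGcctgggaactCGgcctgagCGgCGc
Twist1 promoter: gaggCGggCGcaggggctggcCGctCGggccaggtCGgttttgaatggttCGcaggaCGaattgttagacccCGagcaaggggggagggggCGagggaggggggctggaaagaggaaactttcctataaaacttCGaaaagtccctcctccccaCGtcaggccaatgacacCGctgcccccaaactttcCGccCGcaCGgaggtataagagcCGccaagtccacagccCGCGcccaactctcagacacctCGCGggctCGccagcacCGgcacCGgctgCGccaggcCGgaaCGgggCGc
Prrx1 promoter: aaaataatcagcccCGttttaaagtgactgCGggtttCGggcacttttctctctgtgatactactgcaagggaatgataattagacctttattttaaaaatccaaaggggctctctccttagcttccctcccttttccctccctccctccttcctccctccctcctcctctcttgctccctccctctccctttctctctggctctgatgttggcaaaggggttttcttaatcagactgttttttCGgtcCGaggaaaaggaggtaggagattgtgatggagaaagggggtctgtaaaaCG
The Msx1 promoter lies at chr5:37824536-37824835 on the minus strand, that of Twist1 at chr12:33957421-33957720 on the plus strand and that of Prrx1 at chr1:163313601-163313900 on the minus strand. Msx1 held 29 CpG in 300 bases, Prrx2 28, Twist1 27, Msx2 22, Hand2 17, Shox2 11, Tbx4 8 and Prrx1 6. The median over 14514 protein-coding promoters of the table was 14. Letters were searched on either strand and at any place in the 300 bases. TAATTA, a homeodomain core, was in the promoters of Prrx1, Hand2 and Msx2 and in 4.66% of all promoters. TATAAA, the letters of a TATA box, was in those of Shox2, Tbx4 and Twist1 and in 12.9% of all. In Tbx4 it was on the strand opposite to the gene. The distance of these matches from the start was not considered, so none is shown to be a working TATA box. The GC content ran from 47.7% in Prrx1 to 70.3% in Prrx2 around a median of 57% over all promoters. The Msx1 and Twist1 promoters were CpG-rich, and those of Prrx1 and Tbx4 were CpG-poor.

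The sequences at the strongest distal WT sites called in all 4 libraries are shown next, 151 bases centred on the WT summit (mm9), because they are the strongest WT peaks outside promoters in the windows of 7 of the 10 genes. In other libraries other sites could be higher, such as 13.8 kb inside Prrx1 with 23.2 in Cho replicate 1, or 97.5 kb downstream of Prrx2 with 28.7 in Cho replicate 2. Each runs 5′ to 3′ on the strand of the named gene. Capitals mark matches on either strand to 10 short motifs. The homeodomain core of factors such as Prrx, Shox and Msx was searched as TAATTA, and the related core bound by Pitx factors as TAATCC. The T-box core was searched as GGTGTGA, and the E-box known for Twist and Hand dimers as CATCTG. For SOX factors the letters were ACAAAG, and for the AP-1 dimers of Fos and Jun they were TGANTCA. Runx factors were represented by the letters TGTGGT, and TEAD factors by CATTCC. Part of the long CTCF motif was searched as AGGNGGC, and the TATA box as TATAAA.
Prrx1 distal site: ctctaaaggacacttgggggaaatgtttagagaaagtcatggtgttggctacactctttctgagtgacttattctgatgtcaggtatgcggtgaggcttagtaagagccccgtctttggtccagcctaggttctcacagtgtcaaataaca
Prrx2 distal site: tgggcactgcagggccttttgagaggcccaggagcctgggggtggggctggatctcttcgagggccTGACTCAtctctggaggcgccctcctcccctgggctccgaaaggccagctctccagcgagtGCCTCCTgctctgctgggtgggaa
Shox2 distal site: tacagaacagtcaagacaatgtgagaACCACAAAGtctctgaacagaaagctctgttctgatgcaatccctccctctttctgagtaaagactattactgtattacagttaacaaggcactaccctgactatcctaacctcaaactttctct
Msx1 distal site: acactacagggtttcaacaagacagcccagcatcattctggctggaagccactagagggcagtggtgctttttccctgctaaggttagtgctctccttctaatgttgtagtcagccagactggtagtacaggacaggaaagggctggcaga
Msx2 distal site: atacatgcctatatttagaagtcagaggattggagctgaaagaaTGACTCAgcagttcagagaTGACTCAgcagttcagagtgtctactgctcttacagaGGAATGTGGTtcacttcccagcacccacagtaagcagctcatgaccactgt
Hand2 distal site: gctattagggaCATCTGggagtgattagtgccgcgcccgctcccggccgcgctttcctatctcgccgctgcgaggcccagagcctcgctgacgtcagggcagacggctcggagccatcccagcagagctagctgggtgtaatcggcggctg
Twist1 distal site: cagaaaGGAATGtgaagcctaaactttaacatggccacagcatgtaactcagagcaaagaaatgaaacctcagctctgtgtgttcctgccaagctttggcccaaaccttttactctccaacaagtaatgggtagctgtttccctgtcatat
These windows are at chr1:165139506-165139656 for Prrx1, chr2:30608821-30608971 for Prrx2, chr3:66835470-66835620 for Shox2, chr5:38143691-38143841 for Msx1, chr13:53610097-53610247 for Msx2, chr8:59807418-59807568 for Hand2 and chr12:34725061-34725211 for Twist1. The Msx2 site held the AP-1 letters at 2 places, with TEAD and RUNX letters that overlap each other. The Prrx2 site held AP-1 letters 9 bases before the summit, and CTCF letters. The Shox2 site held SOX and RUNX letters that overlap, the Hand2 site the E-box and the Twist1 site the TEAD letters. The Prrx1 and Msx1 sites held none of the letters searched. Over 69521 WT peaks with a summit more than 1 kb from any annotated start, 21.0% of windows of this length held the AP-1 letters, 19.4% RUNX, 16.7% TEAD, 14.5% CTCF, 14.04% the E-box and 9.46% SOX. The rarest were the homeodomain core at 1.64%, the T-box core at 1.92% and the Pitx core at 3.88%. Among the 119 such peaks in the windows of the 10 genes, 21 held AP-1 letters (17.6%), 3 the homeodomain core (2.52%), 7 the Pitx core (5.88%) and 1 the T-box core (0.84%). A match is a description of the letters and not of binding. A site without a match can still hold a form of a motif that these short letters miss. This applies to CTCF in particular, as only part of its motif was searched.

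The first question was which of the genes had an open promoter in rib chondrocytes. A promoter peak was called for 7 of the 10 genes in either Cho replicate, for 6 in WT and for 8 in Del. The share over all 18098 genes was 58.6%, 64.7%, 62% and 67.8%, and the shares of the 10 genes were near these. In a bulk library, fewer cells with an open promoter and a weaker opening in each cell cannot be told apart. Prrx1, Shox2, Hand2, Twist1, Msx1 and Msx2 were called in all 4 libraries, as were 9526 of all genes (52.6%). Pitx1 and Tbx4 had no promoter peak in any library at the 5′ end of the gene.

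**Figure D1:**
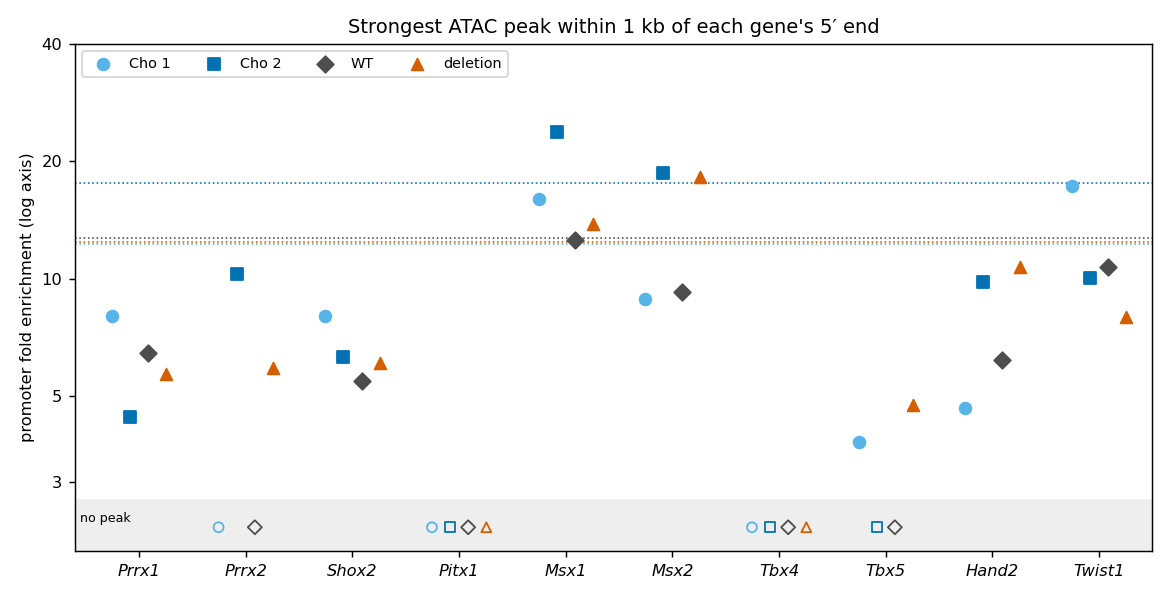
Promoter fold enrichment (log axis) of the 10 genes, 1 point per library, with open symbols in the grey strip for no peak and dotted lines for the median over all called promoters of each library. Msx1, Msx2 and Twist1 reach or approach the medians of 12.2 to 17.6, the other promoters lie below their own library's line, and Pitx1 and Tbx4 have no promoter peak.

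Most of the promoters that were called were weak for a promoter. The median of all called promoters was a fold enrichment of 12.2 and 17.6 for the Cho replicates, 12.7 for WT and 12.4 for Del. Msx1 and Twist1 lay above it in Cho replicate 1, and Msx1 and Msx2 in Cho replicate 2 and in Del. In WT all 6 called promoters lay below it. When each list was limited to its strongest 76242 peaks, 7, 5, 6 and 4 of the 10 genes kept a promoter peak, against 58.6%, 55.97%, 60.1% and 58.6% of all genes. The 4 left in Del were Hand2, Twist1, Msx1 and Msx2.

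Among the homeobox genes, Msx1 encodes a repressor that holds mesenchymal progenitors undifferentiated. Its promoter fold enrichment was 16.0 and 23.7 in the Cho replicates, 12.6 in WT and 13.8 in Del, with a mean of 19.9 ± 5.45 (SD, n = 2) in Cho. It was the highest of the 10 genes in Cho replicate 2 and WT, while Twist1 at 17.3 was above it in Cho replicate 1 and Msx2 at 18.2 in Del. In all 4 libraries the Msx1 summit lay within 39 bp of the annotated 5′ end.

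Msx2, its close paralogue with a role in bone and skull growth, had promoter fold enrichments of 8.87 and 18.7 in Cho, 9.23 in WT and 18.2 in Del. Cho replicate 2 and Del were high and Cho replicate 1 and WT low, so the 2 Cho replicates differed as much as WT and Del did. The Cho mean was 13.8 ± 6.95 (SD, n = 2).

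Prrx1 marks limb bud mesenchyme and skeletal progenitors. Its promoter fold enrichment was 8.02 and 4.42 in Cho, 6.45 in WT and 5.70 in Del, all in the lower part of the called promoters. The 5′ end of Prrx1 is annotated 1495 bp upstream of the RefSeq start in mm10 and 60 bp upstream of it in mm9. The value of 4.42 in Cho replicate 2 is therefore from a different place. At the RefSeq start Cho replicate 2 had 4.66, from a summit 421 bp downstream of that start. In the other libraries the values were unchanged, and the summits lay within 47 bp of it. Prrx2, its paralogue, had a promoter peak of 10.3 in Cho replicate 2 and 5.89 in Del and none in Cho replicate 1 or WT. The 5′ end of Prrx2 is annotated 10395 bp further upstream in mm9 than the RefSeq start. At the RefSeq start, matched between the builds by its 300 bases, Prrx2 had peaks of 10.3 in Cho replicate 2, 5.12 in WT and 6.35 in Del and none in Cho replicate 1.

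Shox2, which acts in the proximal limb and in the sinus node of the heart, had promoter fold enrichments of 8.02 and 6.30 in Cho, 5.45 in WT and 6.09 in Del. These values were close to each other and its summits lay 324 to 556 bp inside the gene. In Cho replicate 1, WT and Del the peak was also within 1 kb of the 5′ end of the neighbour Rsrc1 and nearer to it. It therefore cannot be assigned to Shox2 alone. Nearness to neighbours was not read for Cho replicate 2. Pitx1, the hindlimb factor, had none. A peak of 4.40 in Cho replicate 2 lay 1.049 kb upstream of its start, just outside the limit of 1 kb, and a Del peak of 4.02 lay 4.79 kb inside the gene, 26 bp from an internal transcript start.

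Of the T-box genes, Tbx5 had weak promoter peaks of 3.80 in Cho replicate 1 and 4.73 in Del, which lay 591 and 765 bp inside the gene. There was none in Cho replicate 2 or WT. The start of Tbx5 is annotated 38151 bp further upstream in mm10, and at the position that matches the mm9 start Cho replicate 2 had a peak of 3.995. Tbx4 had a single call at its RefSeq start, of 3.69 from 5 tags in Del. Peaks of so few tags were near the limit of the lists, whose smallest called pileup was 4 to 8 tags, so a weaker opening of these promoters was not detectable at this depth.

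The bHLH genes were called in all libraries. Hand2 had promoter fold enrichments of 4.65 and 9.81 in Cho, 6.16 in WT and 10.7 in Del, from summits 597 to 704 bp inside the gene. Twist1, which keeps mesenchymal cells from differentiating, had 17.3 and 10.03 in Cho, 10.7 in WT and 7.97 in Del, from summits within 40 bp of the start. Hand2 was higher in Cho replicate 2 and Del, and Twist1 lower in them. The Cho means were 7.23 ± 3.65 and 13.7 ± 5.15 (SD, n = 2).

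The genes whose promoter levels were most like those of Msx1 were Alg6, an enzyme of N-glycosylation, and Osgep and Apex1, which share 1 promoter. Likeness was the Euclidean distance of log2 fold enrichment over the 4 libraries among 9526 genes, and it was 0.13 for Alg6 and 0.15 for the other pair. Alg6 was at 17.3, 23.7, 13.04 and 14.2 in Cho replicate 1, Cho replicate 2, WT and Del.

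Of 24 other limb patterning genes, 14 and 19 had a promoter peak in the Cho replicates, 18 in WT and 22 in Del (58.3%, 79.2%, 75% and 91.7%). The share over all genes was 58.6%, 64.7%, 62% and 67.8% in the same order. With the strongest 76242 peaks of each list the counts were 14, 12, 17 and 15 of 24, against 58.6%, 55.97%, 60.1% and 58.6% of all genes. Gli3, the transducer of Hedgehog signals, had 29.1 and 14.7 in Cho, 10.9 in WT and 9.75 in Del. Tbx3, a T-box repressor of the limb margins, had 30.8 and 16.7 in Cho, 10.2 in WT and 9.24 in Del. Both had higher promoter values than most of the 10 genes. Twist2, the paralogue of Twist1, had no peak in Cho replicate 1, and 15.7, 7.85 and 10.8 in the other libraries. Lmx1b, the dorsal limb factor, had 4.65 in Cho replicate 1, 4.93 in WT and 6.01 in Del. Fgf10, the mesenchymal signal of limb outgrowth, had a single call of 5.75 in Cho replicate 2. Shh, the posterior signal of the bud, had a single call of 4.92 in Del. Among the 18 of these genes called in both WT and Del, none reached a 2-fold difference in either direction, against 1.08% of all genes called in both for higher in Del and 0.0805% for higher in WT.

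The second question was how many open sites the surroundings of each gene held. The 10 windows held 109 and 249 peaks in the Cho replicates, 148 in WT and 270 in Del, which followed the size of the lists. Pooled over the 10 windows, the density was 4.88, 11.0, 6.63 and 12.1 peaks per 100 kb. The median of the 10 windows was 4.19, 9.24, 4.56 and 11.2, against medians of 4.35, 9.02, 5.76 and 10.4 over all genes. By that measure the windows were below all genes in Cho replicate 1 and WT and above them in Cho replicate 2 and Del. The median fold enrichment of these peaks was 4.65, 7.44, 6.62 and 6.21, against 6.33, 7.93, 6.86 and 6.25 over all peaks. In WT, 92 of the 148 peaks were intergenic and 28 lay in the body of 1 of the 10 genes. There were 23 within 1 kb of the 5′ end of a gene, of which 6 had the named gene's 5′ end nearest. Those 6 include 2 at Prrx1 and 0 at Shox2, so they are not the 6 promoters called in WT.

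**Figure D2:**
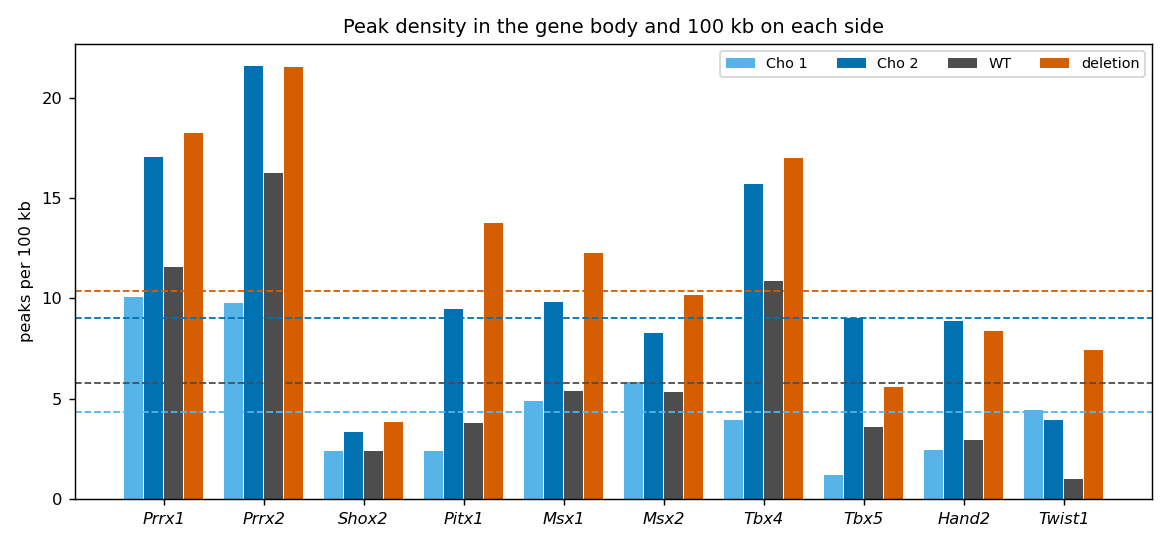
Peaks per 100 kb (bars from 0) in the gene body and 100 kb on each side of the 10 genes in each library, with dashed lines for the median over all genes of the library in the same colour. Prrx1 and Prrx2 stand above the line in all 4 libraries, Tbx4 in all but Cho replicate 1, and Shox2 below it in all 4.

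The Prrx genes had the densest windows. Prrx2 held 24, 51, 40 and 53 peaks in Cho replicate 1, Cho replicate 2, WT and Del, at percentiles 94.8 to 98.4 of the density over all genes. In WT, 33 of its 40 peaks had another gene's start nearest, of 7 neighbours that include Ptges, and none lay at the annotated 5′ end of Prrx2. Prrx1 held 27, 46, 31 and 49 peaks, at percentiles 88.0 to 95.6, with Gorab as the only neighbour. Its peaks ran through the gene body and on both sides of it.

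Tbx4 held 9, 36, 25 and 39 peaks with no promoter peak at its annotated 5′ end. In WT, 8 of its 25 peaks were nearest to the start of Tbx2, the T-box gene next to it, and 5 to that of Gm11444. Pitx1 held 5, 20, 8 and 29 peaks, of which 5 of the 8 in WT were nearest to its neighbours Catsper3 and Pcbd2. Tbx5 held 3, 26, 9 and 14 peaks, in a window of 288.7 kb in mm10 and 250.6 kb in mm9. Msx1 held 10, 20, 11 and 25 peaks and Msx2 12, 17, 11 and 21, near the median of all genes. In WT, 4 of the 11 Msx1 peaks were nearest to the start of Cytl1 and 3 to that of Stk32b. Of the 11 Msx2 peaks in WT, 4 were nearest to the start of Gm5449 and 1 to that of Sptlc1. Hand2 held 5, 18, 6 and 17, Shox2 5, 7, 5 and 8, and Twist1 9, 8, 2 and 15. The 2 WT peaks of the Twist1 window were its promoter and the site 82.6 kb downstream.

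Positions were then compared between libraries as distances from the start of each gene matched across the builds. Summits were grouped into a site where each lay within 150 bp of the next, which gave 355 sites in the range covered by both builds. Of these, 58 (16.3%) were called in all 4 libraries, 71 in 3, 90 in 2 and 136 in 1. Grouped in the same way around 14296 genes with a matched start, 19.6% of sites were in all 4. These windows overlap, so that a peak near several genes counts more than once. Of the 107 sites of Cho replicate 1, 73 were also in Cho replicate 2 (68.2%, 95% exact interval 58.5 to 76.9%), and these were 29.7% (24.0 to 35.8%) of the 246 sites of Cho replicate 2. Of 142 WT sites, 124 were in Del (87.3%, 80.7 to 92.3%), which was 46.6% (40.5 to 52.8%) of 266 Del sites. Around all genes the 4 shares were 71.5%, 35.9%, 90.3% and 53.4%, so each share around the 10 genes was the lower of the pair. The 4 are not separate results, as they rest on the 2 counts of 73 and 124 shared sites. For the sites of Cho replicate 1 and WT the share around all genes lay inside the interval. For those of Cho replicate 2 and Del it lay just above. The intervals cover counting error only.

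**Figure D3:**
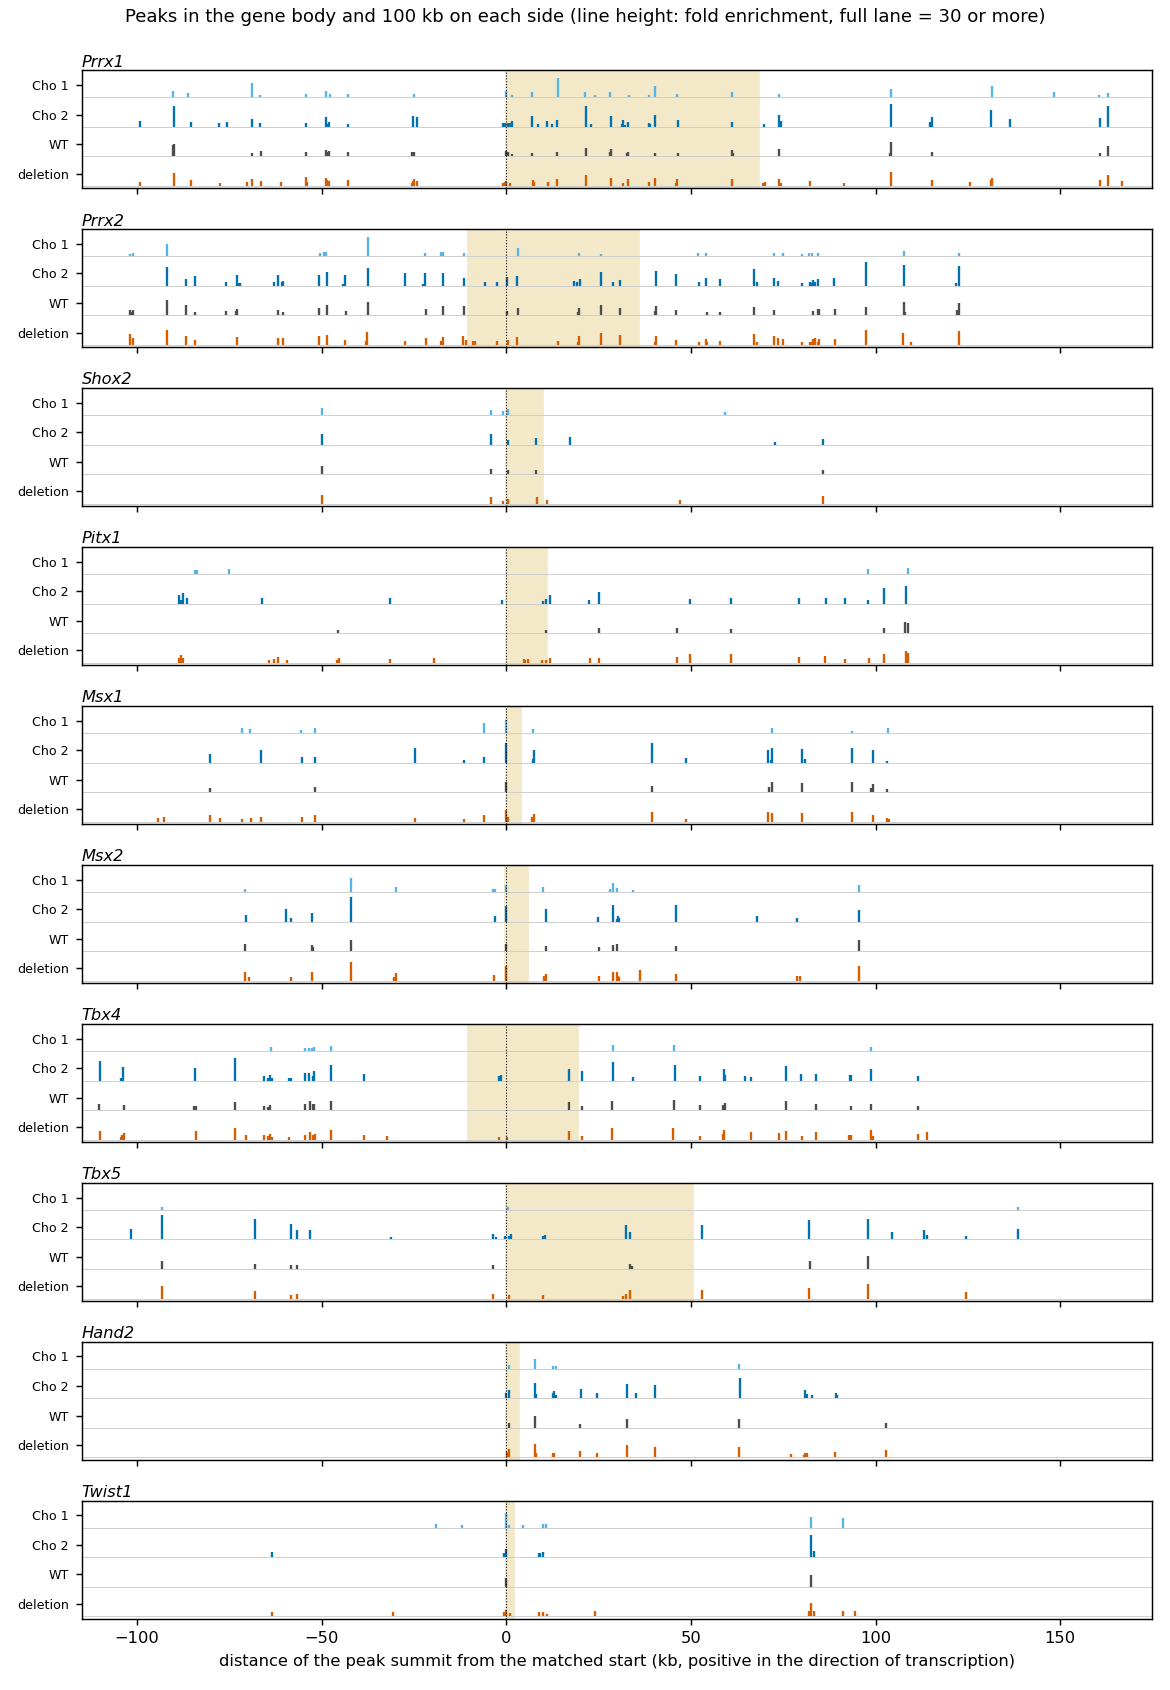
Peaks around each of the 10 genes, as distance of the summit from the matched start (kb, positive in the direction of transcription), 1 lane per library, with line height for fold enrichment (a full lane is 30 or more) and shading for the gene body in mm9. Prrx1 and Prrx2 carry lines along the whole window, Twist1 has its promoter and 1 site 82.6 kb downstream in all 4 lanes, and Pitx1 has no site shared by all 4.

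Prrx1 had 18 of the sites called in all 4 libraries, Prrx2 14, Tbx4 7, Msx2 6, Msx1 4, Shox2 3, Hand2 3, Twist1 2, Tbx5 1 and Pitx1 0. Some of these sites lay at the start of another gene. In Cho replicate 1 a Prrx1 site had its summit 181 bp from the start of Gorab. Prrx2 sites had theirs 36, 50, 114 and 137 bp from the starts of Mettl11a, Ptges, Tor1b and Tor1a. The site of Tbx5 lay 93.4 kb upstream, with 3.80 and 31.5 in Cho, 10.3 in WT and 15.4 in Del. At 5 of the 7 Tbx4 sites the distance was 47.5 to 54.6 kb upstream, in the direction of Tbx2. In Cho replicate 1 and WT the start nearest to these 5 was that of Gm11444. A site 28.8 kb downstream of the Tbx4 start, beyond the 3′ end of the gene, had 7.18 and 21.9 in Cho, 10.6 in WT and 14.6 in Del. Prrx1 had a site 13.8 kb inside the gene with 23.2 in Cho replicate 1, and 8.06, 5.79 and 7.87 in Cho replicate 2, WT and Del.

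At each of the 6 genes with a WT promoter peak, the strongest distal WT site had a higher fold enrichment than the promoter. It was picked from 27 distal WT peaks for Prrx1, 10 for Msx1, 7 for Msx2, 5 for Hand2, 3 for Shox2 and 1 for Twist1. Taking the strongest of several peaks favours the distal side, and the share over all genes was not computed. For Prrx1 the strongest distal WT site lay 104.2 kb downstream, beyond the gene body. It had 10.1 and 27.6 in Cho, 18.03 in WT and 16.8 in Del, against a WT promoter of 6.45. For Prrx2 it lay 92.0 kb upstream, with 14.4 and 23.3 in Cho, 18.98 in WT and 17.7 in Del. These were the strongest WT peaks in the 2 windows. For Shox2 it was 49.9 kb upstream in an intron of the neighbour Rsrc1, with 9.29 and 13.5 in Cho, 10.3 in WT and 10.5 in Del.

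For Hand2 the strongest distal WT site was 7.71 kb downstream, with 11.8 and 18.6 in Cho, 14.7 in WT and 16.5 in Del. For Twist1 it was 82.6 kb downstream, with 13.5 and 26.6 in Cho, 13.8 in WT and 16.6 in Del, and its summits in the 4 libraries lay within 7 bp of each other. For Msx2 it was 42.02 kb upstream, with 17.3 and 29.3 in Cho, 14.02 in WT and 22.5 in Del. For Msx1 it was 72.1 kb downstream, with 6.76 and 17.9 in Cho, 12.6 in WT and 11.1 in Del, and its WT value equalled that of the promoter to 3 digits. These sites are the ones whose letters are printed above. For Prrx2, Msx1 and Msx2 the start nearest to the site was another gene's, at 50285, 17008 and 10900 bp. That gene was Cytl1 for Msx1 and Gm5449 for Msx2.

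The genes without a WT promoter peak had distal sites too. For Tbx5 the strongest was 98.1 kb downstream at chr5:120382610-120382919 (mm9), where Cho replicate 1 had no peak, replicate 2 was at 24.97, and the values were 16.0 in WT and 17.2 in Del. For Tbx4 it was 45.3 kb downstream at chr11:85755358-85755964, with 12.6 in WT and 13.8 in Del. The Cho replicates had peaks of 7.18 and 18.3 there, with summits at 45.5 and 45.63 kb, too far along to be grouped with it as 1 site. For Pitx1 it was 46.1 kb downstream at chr13:55891388-55891470 in an intron of Catsper3, with 6.62 in WT and 7.38 in Del.

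The third question was whether these genes differed between WT and Del. With 1 library each the comparison is of 2 libraries and has no replicate check, and no p-value is given. Of the 6 promoters called in both, none differed 2-fold in fold enrichment. Such differences were rare over all 11182 genes called in both, at 1.08% for higher in Del and 0.0805% for higher in WT. Among the 6, the largest ratio was that of Msx2, from 9.23 in WT to 18.2 in Del, a log2 ratio of 0.98. Scaled by the background of each library, the pileups of 16 and 49 tags gave a ratio of 1.76 (95% exact interval 0.986 to 3.32). Hand2 had a log2 ratio of 0.80 and a scaled ratio of 1.37 (0.572 to 3.61).

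Twist1 was lower in Del, at a log2 ratio of -0.43. Both libraries had 32 tags over the summit, and the scaled ratio was 0.576 (0.341 to 0.971). Prrx1 was at a log2 ratio of -0.18 and a scaled ratio of 0.930 (0.444 to 2.02), and Shox2 at 0.16 and 1.023 (0.426 to 2.63). Msx1 was at 0.14, and its scaled ratio of 0.930 had an interval of 0.557 to 1.58. At its RefSeq start Prrx2 had a log2 ratio of 0.31 and a scaled ratio of 1.15 (0.535 to 2.63). Over the 11182 genes with a promoter peak in both libraries the median log2 ratio of fold enrichment was 0.01 and that of scaled pileups was -0.26, a ratio of 0.836. This ratio lay inside the intervals of all the promoters named here other than Msx2. The intervals cover counting error only, and no library was repeated.

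In the windows of the 10 genes, 145 of 148 WT peaks were overlapped by a Del peak (98.0%, 94.2 to 99.6%), against 95.9% of all WT peaks. Of 270 Del peaks, 132 were overlapped by a WT peak (48.9%, 42.8 to 55.02%), against 49.4% of all Del peaks. Both intervals included the share over all peaks. When each list was limited to its strongest 76242 peaks, the shares became 80.8% and 73.6%, against 80.8% and 77.8% over all peaks.

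Over the 145 shared peaks the median log2 ratio of fold enrichment, Del over WT, was 0.29, against 0.28 over all 87274 shared peaks. With scaled pileups it was -0.02, against -0.01. Of the 145, 15 were at least 2-fold higher in Del (10.3%), against 7.79% of all shared peaks, and 1 was at least 2-fold higher in WT (0.69%), against 0.071%. A WT peak can overlap a broader Del peak with its summit elsewhere. Over the 132 pairs in which each peak was the strongest of the other, 7 were at least 2-fold higher in Del (5.30%), against 5.80% of all such pairs. Prrx1 and Prrx2 held 5 of the 15 each, and the peak that was higher in WT was 84.3 kb downstream of the Prrx2 start, at 7.71 in WT and 3.79 in Del.

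**Figure D4:**
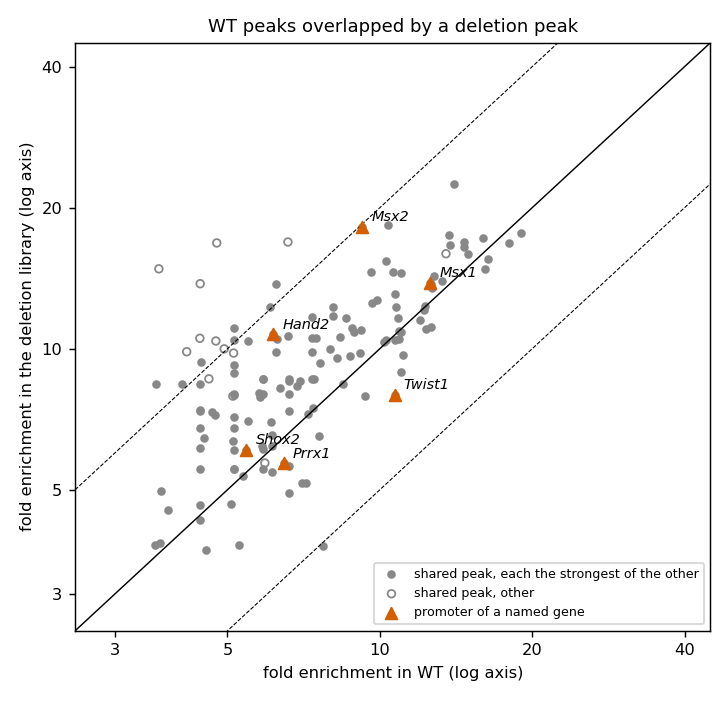
Fold enrichment in Del against WT (log axes) of the 145 WT peaks in the 10 windows that a Del peak overlapped, with triangles for the 6 promoters called in both, a solid line for equal values and dashed lines for a 2-fold difference. The points lie mostly between the dashed lines and above the solid one, Msx2 sits just under the upper dashed line and Twist1 below the solid line.

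Only 3 WT peaks in these windows had no overlapping Del peak, at 4.90 (76.0 kb upstream of Prrx2), 4.58 (32.6 kb inside Prrx1) and 3.56 (1.56 kb inside Prrx1). Of the 138 Del peaks with no overlapping WT peak, 83 (60.1%, 95% exact interval 51.5 to 68.4%) lay at a site also called in Cho, against 53.9% around all genes with a matched start. They were at sites called in replicate 1 for 23 peaks and in replicate 2 for 71. Their median fold enrichment was 4.98. The strongest lay 36.3 kb downstream of Msx2 at 12.9, with no Cho call. The next was 40.2 kb downstream of Hand2 at 12.3, where Cho replicate 2 had 16.4. Another lay 49.9 kb downstream of Pitx1, in an intron of Catsper3, at 11.1 in Del and 5.75 in Cho replicate 2.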

How the data were processed

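Per the labels and the study's methods, the authors cleaned paired-end ATAC-Seq reads with fastp, aligned them with Bowtie2 2.4.4, removed duplicates with Picard (its version is given as 2.20.7 in the submitters' processing notes) and called peaks with MACS2 2.2.4 at a q-value of 0.05. Each deposited list was read as called on 1 library. The authors' lists give fold enrichment (a ratio), −log10 p-value, −log10 q-value and a score for each peak. The list of Cho replicate 2 had 99 peaks on sequences absent from NCBIM37 (mm9) and 325 beyond the end of one of its chromosomes. It was read as GRCm38 (mm10), while the methods state mm9 for every library, and coordinates were never carried from one build to the other.

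The 10 genes, the lists and the tests were chosen with earlier results of these data known. The strongest row of each interval was kept, and summit pileups were solved from fold enrichment and p-value. All were solved, and on 5000 simulated peaks per library, drawn for each of the 4 lists, 99.86 to 100% were recovered. Gene positions came from GENCODE vM1 for mm9 and RefSeq for GRCm38.p6. A matched start was the position of the same 300 bases in both builds or, for Tbx5 and Pitx1, the same distance from the 3′ end of the gene. For the shares around all genes, starts were matched by the 300 bases alone. The matched start, the 300 bp grouping, the pairing of strongest peaks and the check at E308 and E160 were chosen after seeing the data. Named were all 10 genes, the strongest distal WT peak of each, the 3 strongest peaks of WT alone and of Del alone, the 3 genes most like the member of highest WT promoter value, and 6 limb partners. Shares have 95% exact binomial (Clopper-Pearson) intervals for counting error only. Alternatives covered stricter q-values, other windows, overlaps and summits, equal numbers of peaks and pileups over background. Python 3.11.15, pandas 2.3.3 and scipy 1.17.1 were used.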

Additional observations from a re-analysis of the deposited data

How the results depend on the processing

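Depth and list size moved the counts, and 1 library per genotype left the spread unknown. With equal numbers of strongest peaks (76242 in each list), 4 of the 10 genes had a promoter peak in Del, the windows held 120 peaks in Cho replicate 2 and 125 in Del, and the overlapped shares were 80.8% of WT and 73.6% of Del peaks. With windows of 50 kb the counts were 154, 87 and 163 in Cho replicate 2, WT and Del. With q-values below 1e-05 Cho replicate 1 held 52, and with 50% overlap 36.7% of Del peaks were overlapped. The median log2 ratio, Del over WT, turned to -0.019 with pileups over library background, and so did that of the Msx1 promoter, to -0.10. That setting changes the background and leaves out the added count of 1, and the cause was not tested. At the summit nearest its 5′ end, Hand2 had 6.46 in Del. Leaving out Cho replicate 1 or 2 gives the value of the other replicate. The other 118 values, among them the number of genes with a promoter peak under the other 23 settings, stayed within counting error, the replicate SD, the quartiles of the shared peaks or 1.5 times of the value first given. Some of these values could not move. With n = 2 each replicate always lies within the SD of the mean, and equal numbers leave Cho replicate 1 unchanged. Only Cho replicate 1 listed further summits, so listing every summit left the other lists as they were. No paired analysis was possible because each genotype had a single library.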
